A study of Homo sapiens with 10 samples.

Results

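The genes described here are 9: CDH1, CDH3, CDH2 and CDH4 (E-, P-, N- and R-cadherin), the type II cadherins CDH6 and CDH11, the catenins CTNND1 and CTNNA2, and the epithelial adhesion molecule EPCAM. They were taken by symbol from the 60898 rows of the deposited count file, in which each of the 9 symbols has 1 row. All 9 passed the filter on low counts, which left 21063 genes. RNA was sequenced from neural progenitor cells, so labelled, that had been derived from the established human embryonic stem cell line H1. The study removed STAMBP, a deubiquitinase of the endosomal sorting pathway, and also sequenced knockout cells given STAMBP, or CFLAR, which restrains caspase-8.

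The 10 libraries form 5 groups of 2. WT cells carry no label of an edit, KO1 and KO2 are STAMBP-KO, KO+STAMBP is STAMBP-KO+STAMBP, and KO+CFLAR is STAMBP-KO+CFLAR. No editing site, clonal origin, promoter of either construct, or parent line of the 2 groups labelled with a construct is given in the labels, and the mark P3 in every title is not explained. Nor do they say that the 2 libraries of a group are separate cultures, so the p-values measure the spread between libraries, which may be technical. "The knockout" below means KO1 and KO2 together (n = 4 libraries, both lines weighted equally in tests), and n = 2 for every other group.

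Classical cadherins are single-pass membrane proteins that bind like molecules on neighbouring cells. Inside the cell their tails hold p120-catenin, the product of CTNND1, near the membrane and beta-catenin further out, and alpha-catenins link beta-catenin to actin. In the early embryo the neural plate exchanges E-cadherin for N-cadherin as it separates from the surface ectoderm, an exchange known as the cadherin switch. EPCAM is a small epithelial glycoprotein with no cadherin domain.

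The 6 cadherins share the end of their cytoplasmic tail, the part that binds beta-catenin. Coding bases near this end are shown as examples of the genes' sequence. The CDH1 stretch was picked from the last 150 coding bases for the most bases equal to the other genes. From each other gene, the most similar stretch of its last 150 coding bases was taken. The stretches stop 18 to 33 coding bases before the end of the coding sequence. Each line is 60 coding bases on the gene's own strand, 5′ to 3′, from the GENCODE transcript with the longest coding sequence, and capitals mark the bases equal in all 6 genes.
CDH1: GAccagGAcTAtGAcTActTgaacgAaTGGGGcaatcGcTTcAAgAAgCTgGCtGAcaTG
CDH3: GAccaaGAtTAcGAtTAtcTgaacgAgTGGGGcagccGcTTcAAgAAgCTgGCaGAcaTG
CDH2: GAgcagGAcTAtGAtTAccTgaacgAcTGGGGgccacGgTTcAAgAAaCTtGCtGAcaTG
CDH4: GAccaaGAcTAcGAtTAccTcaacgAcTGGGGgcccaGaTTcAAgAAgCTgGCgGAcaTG
CDH6: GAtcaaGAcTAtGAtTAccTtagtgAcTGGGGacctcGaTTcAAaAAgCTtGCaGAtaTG
CDH11: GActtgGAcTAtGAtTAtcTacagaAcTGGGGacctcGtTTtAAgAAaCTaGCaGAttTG
On GRCh38 these coding stretches lie at chr16:68833416-68833475 (CDH1, plus strand), chr16:68698317-68698376 (CDH3, plus strand), chr18:27952174-27952233 (CDH2, minus strand), chr20:61936860-61936919 (CDH4, plus strand), chr5:31323216-31323275 (CDH6, plus strand), chr16:64947639-64947698 (CDH11, minus strand). Of the 60 bases, 32 were equal in all 6 genes. CDH3 equalled CDH1 at 50 bases, CDH2 at 49, CDH4 at 47, CDH6 at 44 and CDH11 at 40. Because the stretches were picked for equal bases, these counts do not measure how alike the whole genes are.

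As whole genes on GRCh38, CDH3 (ENSG00000062038, 68636189 to 68722616) and CDH1 (ENSG00000039068, 68737225 to 68835548) are neighbours on the plus strand of chromosome 16, 14608 bases apart. CDH11 lies on the same chromosome (ENSG00000140937, 64943753 to 65126112), CDH2 on chromosome 18 (ENSG00000170558, 27950966 to 28177446), CDH4 on chromosome 20 (ENSG00000179242, 61252426 to 61940617) and CDH6 on chromosome 5 (ENSG00000113361, 31193750 to 31329146). CTNND1 is on chromosome 11 (ENSG00000198561, 57753243 to 57819546), while CTNNA2 (ENSG00000066032, 79185231 to 80648861) and EPCAM (ENSG00000119888, 47345158 to 47387601) are on chromosome 2.

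The targeted gene was examined first. STAMBP transcripts were at 43.4 and 47.2 CPM in WT, at 16.9 to 19.5 CPM in the knockout libraries, and at 40.4 and 45.3 CPM in KO+STAMBP, where CPM are counts per 1000000 counts after scaling of libraries by the TMM method. In the KO+CFLAR-labelled libraries, STAMBP was at 42.9 and 40.0 CPM. CFLAR had 31.3 and 29.4 CPM there, 34.2 and 30.4 in WT and 247 to 264 in the knockout. The libraries labelled KO+CFLAR therefore show neither the STAMBP level of the knockout nor a CFLAR level above WT, and every direction given for them below rests on their label. Library totals ran from 16495116 to 20832700 counts. The limit that a count of 0 allows, 3 counts, corresponds to 0.144 to 0.182 counts per 1000000 before TMM scaling and covers counting error only.

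In the knockout the epithelial cadherins and EPCAM rose, and N- and R-cadherin fell. CDH1, CDH3, EPCAM and CTNND1 were higher and CDH4, CTNNA2, CDH2 and CDH11 lower than in WT, while CDH6 did not pass the test. These 4 higher and 4 lower calls were made at an adjusted p under 0.05 by edgeR's quasi-likelihood test with Benjamini-Hochberg adjustment over all 21063 genes. The background was wide: 36.8% of all genes were called higher and 39.4% lower, so a call says little about these genes. The median size of the log2 change over all genes was 0.895, which 7 of the 9 exceeded and CDH6 and CDH11 did not. The 9 were chosen with earlier results of these data known, so this count is a description only. In bulk RNA, fewer cells of a type and less RNA per cell cannot be told apart. Overlap of libraries between groups is given below as a description only, since most groups have 2 libraries. The share of all genes without overlap was not computed.

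CDH1 encodes E-cadherin, the main adhesion receptor of epithelia and also of undifferentiated stem cells. Its level was 7.74 and 7.19 CPM in the WT libraries, 1109 and 1110 in KO1, and 1169 and 1195 in KO2. It was 3.92 and 4.54 CPM in KO+STAMBP and 4.98 and 3.81 in the KO+CFLAR-labelled libraries. Every knockout library was high, and the WT libraries lay above both other groups with no overlap. Against WT the knockout was 154-fold higher (log2 7.26 ± 0.06, SE, adjusted p = 6.91e-19), and 320 of the genes tested rose by more.

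CDH3, the P-cadherin gene next to CDH1, had 10.8 and 12.5 CPM in WT against 199, 207, 199.8 and 198 in the knockout libraries. KO+STAMBP had 10.9 and 11.5 CPM and the KO+CFLAR-labelled libraries 11.7 and 12.9. WT overlapped with each of these 2 groups, and all knockout libraries were far above them. The rise was 17.1-fold (log2 4.10 ± 0.06, adjusted p = 1.49e-16).

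CDH2 encodes N-cadherin, the adhesion receptor of the neural tube and of neural progenitors. WT had 659 and 658 CPM, the knockout 202, 201, 204 and 203, KO+STAMBP 459 and 455 and the KO+CFLAR-labelled libraries 463 and 451. The last 2 groups overlapped each other and lay between WT and the knockout. CDH2 fell 3.25-fold in the knockout (log2 -1.70 ± 0.03, adjusted p = 2.51e-16).

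CDH4 encodes R-cadherin, expressed in parts of the developing brain and retina. Its level was 366 and 377 CPM in WT against 9.09, 9.90, 9.39 and 8.03 in the knockout. KO+STAMBP reached 145 and 151 CPM and the KO+CFLAR-labelled libraries 163 and 175. No 2 of these groups overlapped, and WT was the highest. However, edgeR did not call the KO+CFLAR-labelled libraries apart from KO+STAMBP (adjusted p = 0.0851). The fall was 41-fold (log2 -5.36 ± 0.05, adjusted p = 2.51e-18).

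The 2 type II cadherins had smaller changes. CDH6, expressed in kidney and in parts of the neural tube, was at 107 and 99.7 CPM in WT and 93.7, 111, 102 and 101 in the knockout, and these ranges overlapped (log2 -0.02 ± 0.06, adjusted p = 0.744). With scaling by library size alone, an alternative chosen after seeing the data, it was called lower (log2 -0.20, adjusted p = 0.00558). That scaling moved the median of all genes by -0.17 in this comparison. CDH6 had 52.3 and 55.2 CPM in KO+STAMBP and 51.4 and 51.7 in the KO+CFLAR-labelled libraries, below WT and knockout alike.

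CDH11, or OB-cadherin, is typical of mesenchymal cells and is also found in the developing brain. WT libraries had 46.1 and 47.0 CPM, knockout libraries 26.9, 29.9, 31.5 and 32.5, KO+STAMBP 67.6 and 67.0 and the KO+CFLAR-labelled libraries 58.9 and 55.6. No 2 of these groups overlapped, and the knockout was the lowest. However, edgeR did not call the KO+CFLAR-labelled libraries apart from KO+STAMBP (adjusted p = 0.0786). CDH11 fell 1.55-fold (log2 -0.63 ± 0.06, adjusted p = 9.92e-08).

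**Figure D1:**
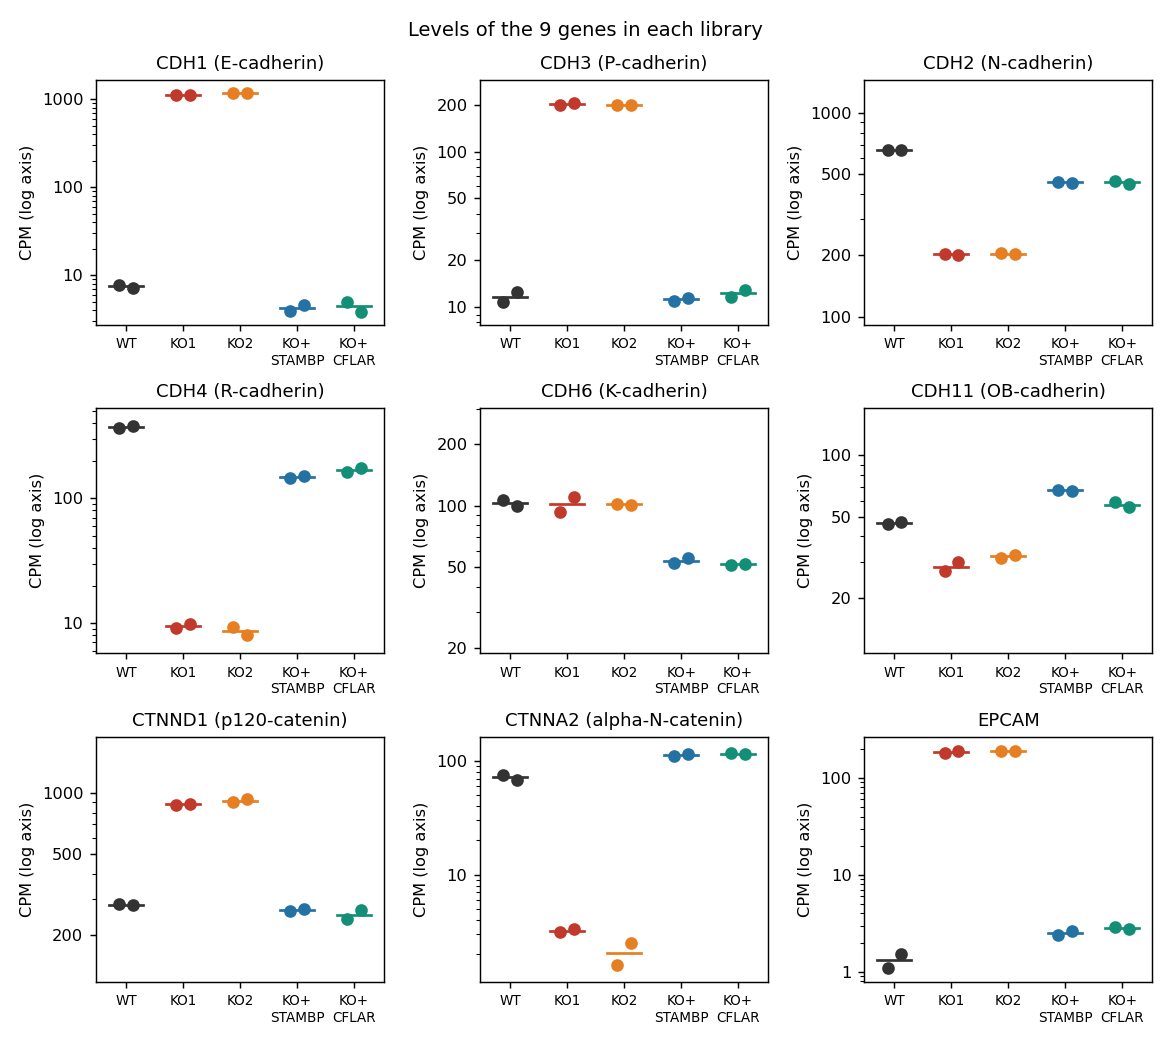
Each panel plots the level of 1 of the 9 genes in CPM on a log axis; points are libraries and lines are group means (n = 2 per group, KO1 and KO2 shown apart). CDH1, CDH3, CTNND1 and EPCAM are highest in KO1 and KO2, CDH2, CDH4, CDH11 and CTNNA2 are lowest there, and CDH6 is lowest in KO+STAMBP and KO+CFLAR.

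Of the 2 catenins, one rose and the other fell. CTNND1 encodes p120-catenin, which keeps cadherins at the membrane. It was at 284 and 281 CPM in WT, 876 and 877 in KO1, 900 and 929.5 in KO2, 261 and 269 in KO+STAMBP and 239.8 and 265 in the KO+CFLAR-labelled libraries. All knockout libraries lay above all others, and WT lay above the last 2 groups, which overlapped. However, edgeR did not call KO+STAMBP apart from WT (adjusted p = 0.127). The rise in the knockout was 3.17-fold (log2 1.66 ± 0.04, adjusted p = 2.03e-14). CTNND1 overlaps the annotated read-through gene TMX2-CTNND1 on its own strand, for which no row was matched, so its value may include reads of that transcript.

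CTNNA2 encodes alpha-N-catenin, the alpha-catenin of neurons. It had 75.2 and 68.6 CPM in WT and 3.08, 3.32, 1.59 and 2.48 in the knockout. KO+STAMBP had 111 and 115 CPM and the KO+CFLAR-labelled libraries 117 and 114, above WT in every library. The fall in the knockout was 27.9-fold (log2 -4.80 ± 0.09, adjusted p = 1.17e-15). LRRTM1 lies within CTNNA2 on the opposite strand, and whether counting used strand is not stated. The row of LRRTM1 held 1551 counts over all libraries, 12.7% of those of CTNNA2, so reads of the 2 genes cannot be fully told apart.

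A RefSeq table of windows from 250 bases before to 50 after a gene's start (GRCh38.p14) held 3 of the 9 genes, CDH2, CDH4 and CTNNA2. The CTNNA2 window with the most CpG dinucleotides is shown up to its first annotated exon, since CTNNA2 had the widest fall after CDH4 and this start is the most CpG-rich found (chr2:79512801-79512999, plus strand, 199 bases). Capitals mark GGGCGG, the core of the GC box.
CTNNA2: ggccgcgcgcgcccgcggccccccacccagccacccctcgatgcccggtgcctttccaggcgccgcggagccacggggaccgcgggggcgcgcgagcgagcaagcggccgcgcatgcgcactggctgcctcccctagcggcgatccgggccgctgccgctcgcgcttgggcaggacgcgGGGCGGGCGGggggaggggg
This stretch has 33 CpG dinucleotides and 2 overlapping copies of GGGCGG. The full window has 43 CpG, and 95% of the 35116 windows in the table have fewer. On either strand, GGGCGG was in 45% of all windows and CAGGTG, an E-box that ZEB and SNAI factors recognise, in 20.6%. CAGGTG was in none of the 4 CTNNA2 windows or the 2 CDH2 windows and in 1 of the 2 CDH4 windows. Which start these cells used is not known.

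EPCAM, a marker of epithelia and of stem cells, had 50 counts in all in WT, or 1.11 and 1.52 CPM. It was at 179, 190.4, 189.9 and 188 CPM in the knockout, 2.37 and 2.62 in KO+STAMBP and 2.89 and 2.77 in the KO+CFLAR-labelled libraries. The KO+STAMBP libraries and the KO+CFLAR-labelled libraries all lay above both WT libraries and below every knockout library. The rise in the knockout was 140-fold (log2 7.13 ± 0.09, adjusted p = 2.21e-17).

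Markers of several cell types moved with these genes. Their calls, here and in the next paragraph, stand beside 36.8% of all genes called higher and 39.4% lower in the knockout. All 6 epithelial markers listed (KRT8, KRT18, KRT19, CLDN4, CLDN6 and DSP) were called higher in the knockout, and their summed level was 51.4 to 52.8 CPM in WT, 8050.3 to 8501 in the knockout, 91.1 to 92.4 with STAMBP and 79.3 to 79.8 in the KO+CFLAR-labelled libraries. The 6 neuron markers were all called lower, with sums of 3324 to 3411 CPM in WT, 684 to 708 in the knockout, 5016 to 5069.9 with STAMBP and 5070.5 to 5169 in the KO+CFLAR-labelled libraries. Of 7 neural progenitor markers 5 were called lower and 1 higher, with sums of 4588 to 4809 CPM in WT, 3153 to 3169 in the knockout, 2479 to 2516 with STAMBP and 2459.5 to 2524 in the KO+CFLAR-labelled libraries. No marker of these 3 lists was at 0 in any group. The progenitor markers moved apart, and their mean levels in WT and the knockout are given for all 7. SOX1 was at 147 ± 6.74 and 0.480 ± 0.125 CPM, SOX2 at 297 ± 0.424 and 28.4 ± 1.36, FABP7 at 1124 ± 41.2 and 0.446 ± 0.238, HES5 at 14.2 ± 0.805 and 2.34 ± 0.298, and NES at 774 ± 4.75 and 661 ± 10.2. PAX6 was at 181 ± 0.120 and 208 ± 3.95 CPM, and VIM, which made up most of the knockout sum, at 2159.8 ± 104 and 2259.5 ± 12.3. The part of the mix of cells in the changes of the 9 genes was not tested.

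Undifferentiated stem cells also carry CDH1 and EPCAM. Their 8 listed markers, 6 of which were tested, had 4 called higher and 1 lower in the knockout and none at 0 in any group, with sums of 29.04 to 30.8 CPM in WT, 46.7 to 54.7 in the knockout, 20.4 to 21.0 with STAMBP and 18.9 to 22.7 in the KO+CFLAR-labelled libraries. POU5F1, the defining factor of that state, chosen after its values were seen, was at 0.979 ± 0.0677 CPM in WT and 0.719 ± 0.145 in the knockout (log2 -0.44 ± 0.37, adjusted p = 0.292), and LIN28A, chosen likewise, at 0.517 ± 0.237 and 21.9 ± 1.65 CPM. DNMT3B, which made up most of the WT sum, was at 25.9 ± 0.771 and 18.6 ± 1.19 CPM. L1TD1 was at 1.26 ± 0.117 and 7.15 ± 1.11 CPM, and DPPA4 at 0.867 ± 0.157 and 2.55 ± 0.262. ZFP42 was at 0.165 ± 0.0954 and 0.618 ± 0.121 CPM, NANOG at 0.180 ± 0.0906 and 0.304 ± 0.0491, and TDGF1 at 0.073 ± 0.104 and 0.0853 ± 0.110. The 6 mesenchyme markers (3 called higher, 2 lower, none at 0) summed to 118 to 123 CPM in WT, 2051 to 2129.7 in the knockout, 119.9 to 124 with STAMBP and 97.9 to 101 in the KO+CFLAR-labelled libraries. Nearly all of the knockout sum was COL1A1, at 6.64 ± 0.0871 CPM in WT and 1030.3 ± 25.4 in the knockout, and COL1A2, at 66.2 ± 2.61 and 1043 ± 10.2. DCN was at 19.1 ± 0.542 and 0.0727 ± 0.0535 CPM, PDGFRB at 19.9 ± 1.01 and 8.94 ± 0.997, COL3A1 at 4.38 ± 0.439 and 4.93 ± 1.01, and LUM at 4.69 ± 0.138 and 6.50 ± 0.389. Of 5 choroid plexus and hem markers 2 were called higher and 3 lower, and they summed to 52.2 to 53.4 CPM in WT, 54.5 to 62.8 in the knockout, 508 to 512 with STAMBP and 441 to 447 in the KO+CFLAR-labelled libraries. Their similar sums in WT and the knockout had different members: CLIC6 was at 6.68 ± 0.106 and 55.1 ± 3.21 CPM, TTR at 19.1 ± 1.11 and 0.0138 ± 0.0275, RSPO2 at 18.9 ± 0.765 and 0.742 ± 0.247, LMX1A at 6.25 ± 0.542 and 0.154 ± 0.109, and AQP1 at 1.85 ± 0.149 and 3.44 ± 0.645. Sums of neural crest markers (FOXD3 at 0 in WT and KO+STAMBP) stayed between 11.8 and 16.1 CPM, but their members moved apart. Of 5 listed 3 were tested, with 1 called higher and 1 lower in the knockout. TFAP2B was at 2.37 ± 0.799 CPM in WT and 12.2 ± 0.400 in the knockout, and NGFR at 10.2 ± 1.07 and 2.14 ± 0.435. PAX3 was at 1.44 ± 0.515 and 0.911 ± 0.351 CPM, and SOX10 at 0.239 ± 0.00829 and 0.495 ± 0.156. Of 4 endothelial markers 3 were called higher and 1 lower in the knockout, with sums of 8.21 to 8.31 CPM in WT, 28.9 to 30.4 in the knockout, 5.73 to 6.42 in KO+STAMBP and 3.95 to 4.01 in the KO+CFLAR-labelled libraries. KDR, which made up most of the knockout sum, was at 3.35 ± 0.111 CPM in WT and 25.4 ± 0.296 in the knockout. TEK, the highest of the 4 in WT, went the other way, from 4.08 ± 0.238 to 1.198 ± 0.332 CPM. PECAM1 was at 0.619 ± 0.2998 and 2.43 ± 0.2595 CPM, and CDH5 at 0.205 ± 0.125 and 0.696 ± 0.227. CDH5 was at 0 in KO+STAMBP and in the KO+CFLAR-labelled libraries. Endoderm markers (SOX17 and FOXA2 at 0 outside the knockout) reached at most 1.44 CPM and blood markers 0.928. The part of these cells in the results was likewise not tested.

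Per length of exon, the make-up of the 6 cadherins turned over in the knockout. For this, each level was divided by the length of the gene's merged exons, so that genes could be set beside each other. In WT, CDH2 made up 67.0% ± 0.286 (SD, n = 2) of the summed cadherin level and CDH4 25.5% ± 0.433, while CDH1 and CDH3 made up 0.609% ± 0.0337 and 0.941% ± 0.0911. In the knockout, CDH1 made up 68.6% ± 0.892 (SD, n = 4), CDH2 15.2% ± 0.329, CDH3 11.9% ± 0.462 and CDH4 0.459% ± 0.0475. The share of CDH6 was 4.21% ± 0.225 in WT and 3.04% ± 0.216 in the knockout, and that of CDH11 1.75% ± 0.0200 and 0.834% ± 0.0479.

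CDH2 and then CDH4 had the largest shares in KO+STAMBP and in the KO+CFLAR-labelled libraries, as they had in WT. CDH2 made up 74.3% ± 0.651 in KO+STAMBP and 73.0% ± 0.951 in the KO+CFLAR-labelled libraries, CDH4 16.2% ± 0.452 and 18.2% ± 1.02, CDH11 4.04% ± 0.0336 and 3.38% ± 0.119, CDH6 3.49% ± 0.124 and 3.29% ± 0.0333, and CDH1 0.551% ± 0.0563 and 0.563% ± 0.103. CDH6 came next in WT, whereas the mean share of CDH11 was above that of CDH6 in both of these groups. The summed cadherin level was 199 ± 0.601 CPM per kilobase in WT, 270.4 ± 6.93 in the knockout, 124 ± 0.271 in KO+STAMBP and 126 ± 0.781 in the KO+CFLAR-labelled libraries. So the knockout held 136% of the WT sum, and the 2 other groups 62.6% and 63.7%.

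**Figure D2:**
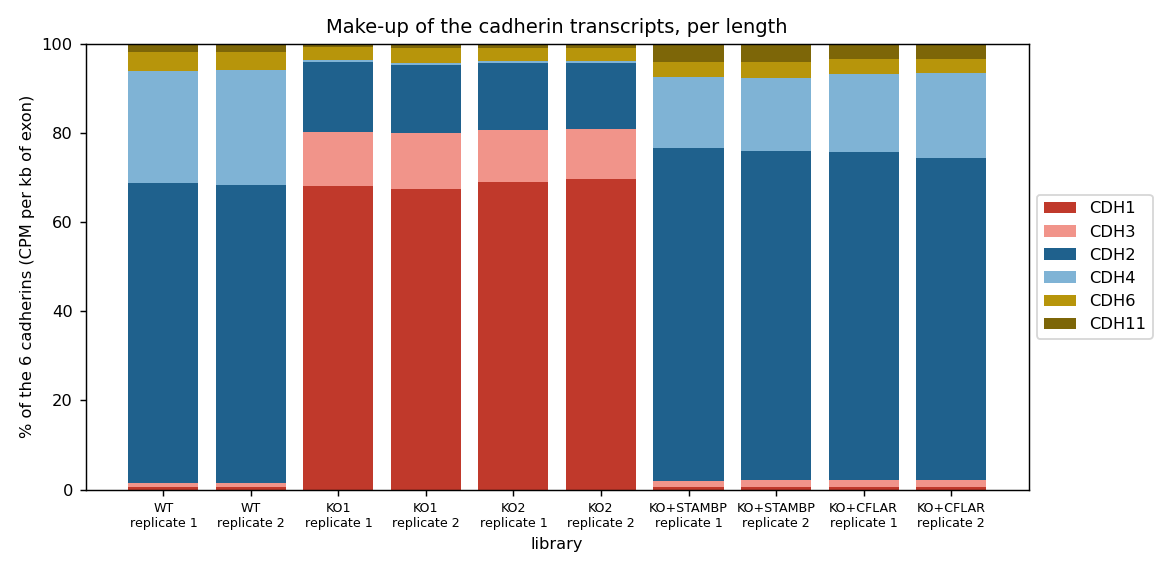
Stacked bars give, for each of the 10 libraries, the percentage that each of the 6 cadherins made up of their summed CPM per kilobase of exon. CDH1 and CDH3 fill most of every knockout bar, and CDH2 and CDH4 most of every other bar.

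Ratios taken within a library do not depend on how libraries are scaled. Per length, the log2 ratio of CDH1 to CDH2 was -6.84 to -6.73 in WT and 2.13 to 2.24 in the knockout, so the order of these 2 cadherins was inverted in all 4 knockout libraries. It was -7.19 to -6.97 in KO+STAMBP and -7.21 to -6.86 in the KO+CFLAR-labelled libraries, all below WT. The log2 ratio of CDH3 to CDH4 went from -4.84 to -4.68 in WT to 4.62 to 4.86 in the knockout. It was -3.49 to -3.47 in KO+STAMBP and -3.57 to -3.52 in the KO+CFLAR-labelled libraries, above the range of WT.

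Pairs on the same side of the exchange also shifted. CDH1 over CDH3 had a log2 ratio of -0.78 to -0.47 in WT and 2.44 to 2.61 in the knockout, and CDH2 over CDH4 one of 1.37 to 1.42 and 4.92 to 5.23. CDH1 over EPCAM stood at 0.95 to 1.51 in WT and at 1.25 to 1.37 in the knockout, which overlap. In KO+STAMBP this last ratio was -0.57 to -0.50 and in the KO+CFLAR-labelled libraries -0.83 to -0.51, below both.

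The catenins shifted between paralogs. CTNND2, the neural delta-catenin, fell from 401 ± 1.44 to 5.92 ± 0.892 CPM in the knockout (log2 -6.09 ± 0.05, adjusted p = 4.02e-19). Per length, CTNND1 made up 35.5% ± 0.0729 of CTNND1 and CTNND2 in WT and 99.2% ± 0.116 in the knockout, against 41.8% ± 0.411 in KO+STAMBP and 38.3% ± 1.79 in the KO+CFLAR-labelled libraries. CTNNA2 made up 19.8% ± 1.00 of CTNNA1 and CTNNA2 in WT, 0.431% ± 0.130 in the knockout, 40.1% ± 0.320 in KO+STAMBP and 40.3% ± 1.69 in the KO+CFLAR-labelled libraries. CTNNA1, the widely expressed alpha-catenin, chosen after its values were seen, was at 341 ± 0.742 CPM in WT, 709.9 ± 10.8 in the knockout (log2 1.06 ± 0.03, adjusted p = 5.57e-13), 197 ± 1.65 in KO+STAMBP and 201 ± 10.6 in the KO+CFLAR-labelled libraries.

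**Figure D3:**
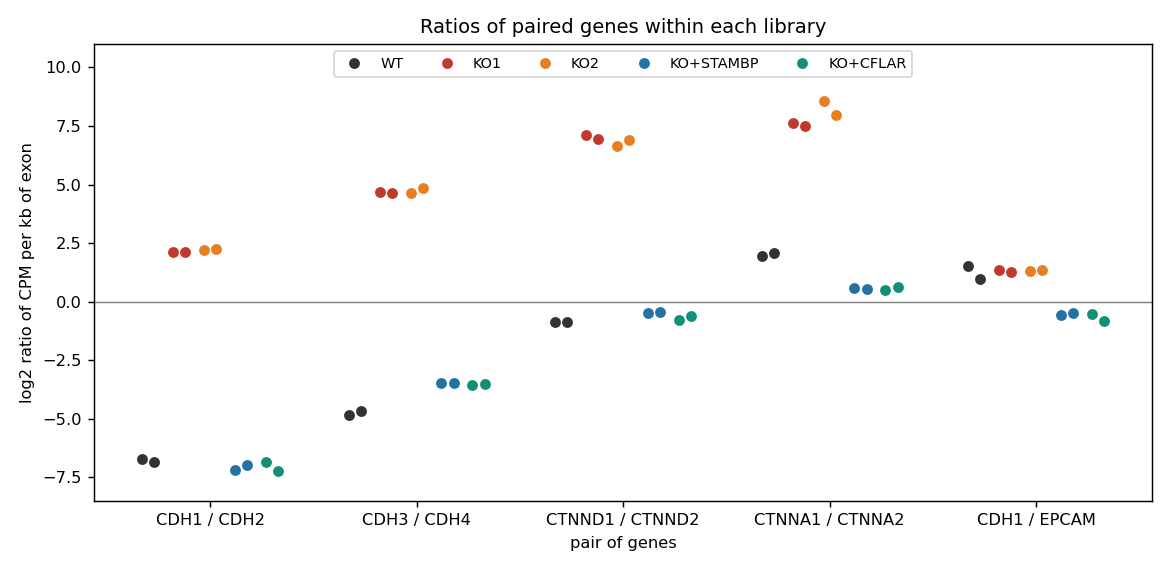
Points give the log2 ratio of 2 genes, per kilobase of exon, within each of the 10 libraries for 5 pairs, by group. For CDH1 / CDH2 and CDH3 / CDH4 the knockout libraries lie above 0 and all others below it, and for CDH1 / EPCAM the libraries of KO+STAMBP and KO+CFLAR lie below 0 and all others above it.

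Taken singly, KO1 and KO2 gave the same calls against WT, whose libraries both comparisons share. In each, the same 4 of the 9 genes were called higher and the same 4 lower, on backgrounds of 72.9% (KO1) and 73.1% (KO2) of genes called in either direction. The log2 change of CDH1 was 7.22 ± 0.06 in KO1 and 7.31 ± 0.06 in KO2, and that of EPCAM 7.11 ± 0.09 and 7.15 ± 0.09. Between the lines, edgeR called 0 of the 9 genes, with 3 at an unadjusted p under 0.05, and 33 of all genes (0.157%). DESeq2 also called 0 of the 9. With no low-count filter 251 genes were called among all in place of 33, and leaving out KO1 replicate 2 gave 58, KO2 replicate 2 gave 20. CTNNA2 had the widest gap, 0.63 ± 0.22 on the log2 scale higher in KO1 (adjusted p = 0.743).

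Against the knockout, all 9 genes changed in KO+STAMBP, 4 of them higher and 5 lower, on backgrounds of 40.1% and 37.8% of all genes. CDH1 fell 270-fold (log2 -8.08 ± 0.07, adjusted p = 5.33e-19), EPCAM 74.7-fold (log2 -6.22 ± 0.08), CDH3 17.9-fold (log2 -4.16 ± 0.06), CTNND1 3.38-fold (log2 -1.76 ± 0.04) and CDH6 1.89-fold (log2 -0.92 ± 0.06). CTNNA2 rose 43.8-fold (log2 5.45 ± 0.08), CDH4 16.3-fold (log2 4.03 ± 0.06), CDH2 2.25-fold (log2 1.17 ± 0.03) and CDH11 2.23-fold (log2 1.16 ± 0.05). The highest adjusted p of the 9 was that of CDH6, 4.33e-09.

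The KO+CFLAR-labelled libraries were set against the same knockout libraries, and again 4 genes were called higher and 5 lower, on backgrounds of 40% and 38%. CDH1 fell 260-fold (log2 -8.03 ± 0.07, adjusted p = 4.35e-19), EPCAM 65.9-fold (log2 -6.04 ± 0.07) and CDH3 16.3-fold (log2 -4.03 ± 0.06). CTNNA2 rose 45-fold (log2 5.49 ± 0.08) and CDH4 18.7-fold (log2 4.22 ± 0.06). The log2 changes of CDH2 and CDH11 were 1.17 ± 0.03 and 0.93 ± 0.05, and those of CTNND1 and CDH6 -1.83 ± 0.04 and -0.98 ± 0.06. CDH6, not called between knockout and WT, was thus lower than the knockout in KO+STAMBP and in the KO+CFLAR-labelled libraries.

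**Figure D4:**
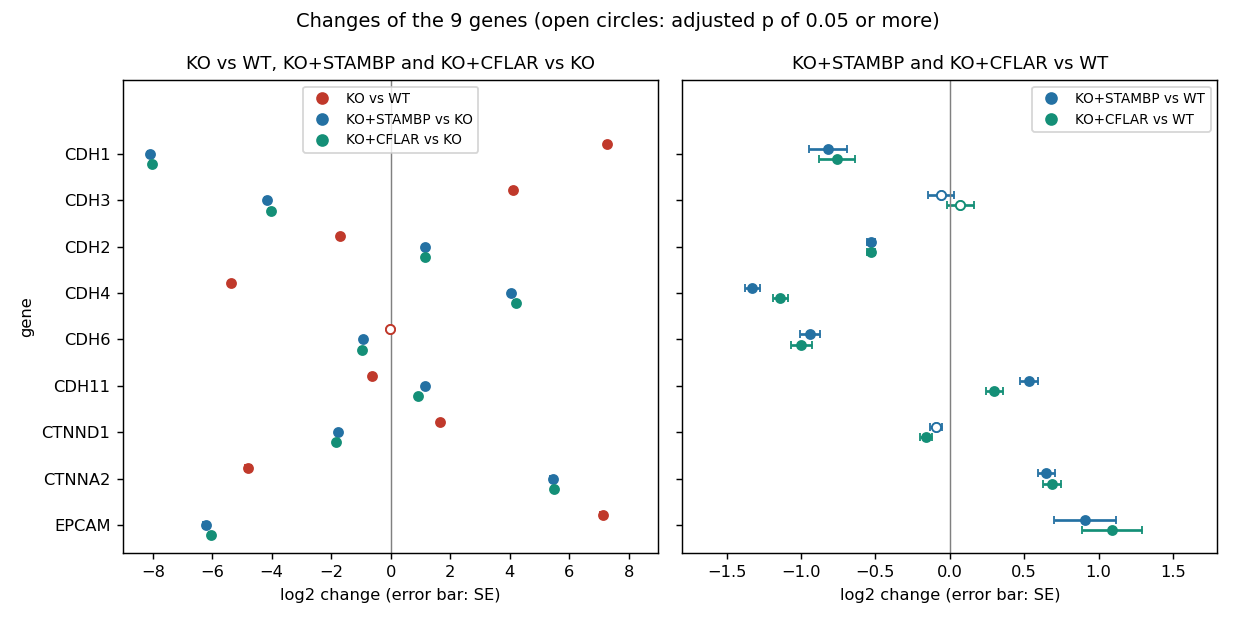
Points give the log2 change of each of the 9 genes with its SE, on the left for the knockout vs WT and for KO+STAMBP and KO+CFLAR vs the knockout, on the right for the last 2 groups vs WT; open circles did not pass the test. On the left the changes vs WT and vs the knockout have opposite signs for every gene but CDH6. On the right CDH1, CDH2, CDH4, CDH6 and CTNND1 lie below 0 and CDH11, CTNNA2 and EPCAM above it in both groups.

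Measured against WT, most of the 9 genes were not at its level. In KO+STAMBP, 3 were called higher and 4 lower than in WT, where 16.4% of all genes were called higher and 18.5% lower. CDH4 was lower by the widest margin, 2.51-fold (log2 -1.33 ± 0.05, adjusted p = 5.69e-11), followed by CDH6 (log2 -0.94 ± 0.07), CDH1 (log2 -0.82 ± 0.13, adjusted p = 0.000139) and CDH2 (log2 -0.53 ± 0.03). EPCAM was higher by 1.87-fold (log2 0.91 ± 0.21, adjusted p = 0.00365), CTNNA2 by 1.57-fold (log2 0.65 ± 0.06) and CDH11 by 1.44-fold (log2 0.53 ± 0.06).

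CDH3 (log2 -0.06 ± 0.09, adjusted p = 0.692) and CTNND1 (log2 -0.09 ± 0.04, adjusted p = 0.127) did not pass the test between KO+STAMBP and WT. CTNND1 was called, at a log2 change of -0.09, when only the groups compared were fitted (adjusted p = 0.0367), without the KO+CFLAR-labelled libraries (adjusted p = 0.0418), without KO+CFLAR replicate 1 (adjusted p = 0.0393) and without KO+CFLAR replicate 2 (adjusted p = 0.039).

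The KO+CFLAR-labelled libraries had 3 of the 9 genes higher and 5 lower than the same WT libraries, against 15.8% and 17.9% of all genes. The log2 changes of those called lower were -1.14 ± 0.05 for CDH4, -1.0 ± 0.07 for CDH6, -0.76 ± 0.12 for CDH1, -0.53 ± 0.03 for CDH2 and -0.16 ± 0.04 for CTNND1. Those called higher had 1.09 ± 0.20 (EPCAM), 0.69 ± 0.06 (CTNNA2) and 0.30 ± 0.06 (CDH11). CTNND1 (adjusted p = 0.00942) lost its call without KO+CFLAR replicate 1 (log2 -0.09, adjusted p = 0.0982). CDH3 was not called (log2 0.07 ± 0.09, adjusted p = 0.6). CDH1 and EPCAM, both high in the knockout, lay on opposite sides of WT here and in KO+STAMBP.

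Between the KO+CFLAR-labelled libraries and KO+STAMBP, edgeR called 0 of the 9 genes, with 2 at an unadjusted p under 0.05, and 1.09% of all genes. DESeq2 called 1, CDH4 (adjusted p = 0.0267), as did edgeR with the replicate number as a block (log2 0.19, adjusted p = 0.0474). Without a low-count filter, edgeR called CDH4 (log2 0.20, adjusted p = 0.00375) and CDH11 (log2 -0.23, adjusted p = 0.0348). The 229 genes called among all became 27 without KO+STAMBP replicate 1, 29 without KO+STAMBP replicate 2 and 52 without KO+CFLAR replicate 1. With edgeR, CDH4 was 0.19 ± 0.05 higher in the KO+CFLAR-labelled libraries on the log2 scale (adjusted p = 0.0851), and CDH11 had -0.23 ± 0.06 (adjusted p = 0.0786). The libraries of the 2 groups did not overlap for either gene, nor for CDH3, CDH6 and EPCAM, which were not called. The share of all genes without overlap was not computed, so the lack of overlap adds nothing to these values. Of all genes called, 57.6% were higher in the KO+CFLAR-labelled libraries with TMM scaling and 47% with library size alone.

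Genes around the 9 were read from lists. Beside their counts, 36.8% of all genes were called higher and 39.4% lower in the knockout than in WT. Against the knockout, 40.1% were called higher and 37.8% lower in KO+STAMBP, and 40% and 38% in the KO+CFLAR-labelled libraries. Of 14 tested other cadherins (CDH16, CDH17 and CDH19 did not pass the filter), 10 fell and 3 rose in the knockout (10 and 2 by library size alone), with a median log2 of -3.65 against -0.043 for all genes tested. CDH7, a type II cadherin of the neural tube and crest, was at 41.7 ± 1.00 CPM in WT, 1.25 ± 0.331 in the knockout, 75.6 ± 3.06 in KO+STAMBP and 96.5 ± 5.48 in the KO+CFLAR-labelled libraries (log2 -5.08 ± 0.12 in the knockout vs WT, adjusted p = 1.69e-14). CDH20 fell from 31.7 ± 0.655 to 2.43 ± 0.268 CPM, CDH10 from 45.8 ± 1.11 to 3.04 ± 1.07 CPM and CDH23, a cadherin of hair-cell tip links, from 27.6 ± 0.479 to 1.73 ± 0.545 CPM. Against the knockout, 10 of the 14 rose and 3 fell in KO+STAMBP, and 10 and 3 in the KO+CFLAR-labelled libraries.

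Of 15 catenins and junction partners, 10 rose and 3 fell in the knockout (10 and 4 by library size alone), with a median log2 of 1.06. JUP, or plakoglobin, which joins the cadherins of adherens junctions and desmosomes, rose from 55.7 ± 0.409 to 973 ± 20.1 CPM (log2 4.12 ± 0.04, adjusted p = 7.96e-19) and was at 71.9 ± 0.631 CPM in KO+STAMBP. NECTIN4, an epithelial nectin, rose from 0.156 ± 0.0560 to 156 ± 3.57 CPM, and VCL, the actin linker vinculin, from 119 ± 0.530 to 525 ± 13.1 CPM. CTNNB1, beta-catenin itself, chosen after its values were seen, rose from 466 ± 2.21 to 766 ± 13.5 CPM (log2 0.72 ± 0.03, adjusted p = 1.36e-11). Against the knockout, 2 rose and 12 fell in KO+STAMBP, and 2 and 13 in the KO+CFLAR-labelled libraries.

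The list of proteins that cleave cadherins or EPCAM or move them in and out of the membrane had 14 of 15 members called higher and 0 lower in the knockout, or 12 and 0 by library size alone (median log2 0.92 and 0.74). MMP14, a membrane-bound metalloprotease, rose from 70.6 ± 1.78 to 792 ± 9.09 CPM (log2 3.49 ± 0.04, adjusted p = 1.18e-17). FURIN, a proprotein convertase, rose from 31.5 ± 0.487 to 268 ± 9.23 CPM, MDM2, a ubiquitin ligase that is also a p53 target, from 134 ± 3.66 to 594 ± 28.2 CPM, and ADAM10, a sheddase of E- and N-cadherin, from 147.8 ± 5.41 to 306 ± 3.34 CPM. Against the knockout, 13 fell and 0 rose in KO+STAMBP, and 13 and 1 in the KO+CFLAR-labelled libraries.

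Of 9 tested partners of EPCAM (TSPAN8 did not pass the filter), 8 rose and 1 fell in the knockout (median log2 5.94). The 1 that fell was LEF1, a nuclear partner of beta-catenin, chosen after its values were seen, from 30.3 ± 1.72 to 10.9 ± 0.462 CPM. ST14, the membrane protease matriptase, had 5 counts in all in WT and was at 391 ± 4.6 CPM in the knockout (log2 11.45 ± 0.10, adjusted p = 7.26e-19). Its inhibitors SPINT1 and SPINT2 also rose, the one from 1.04 ± 0.0903 to 452 ± 6.78 CPM, the other from 38.3 ± 2.18 to 464 ± 5.72 CPM. CLDN7, a claudin that binds EPCAM, rose from 0.132 ± 0.0214 to 276 ± 8.05 CPM. Against the knockout, 8 of the 9 fell and 1 rose in KO+STAMBP, and 8 and 1 in the KO+CFLAR-labelled libraries.

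Repressors of CDH1 did not move one way. Of 12 tested (TWIST2 did not pass the filter), 5 rose and 7 fell in the knockout (4 and 8 by library size alone), with a median log2 of -0.44. Of all genes, 36.8% were called higher and 39.4% lower, so these counts say little about the list. ZEB1, a zinc finger repressor of CDH1, fell from 151 ± 0.608 to 15.7 ± 2.11 CPM (log2 -3.27 ± 0.06, adjusted p = 2.32e-15) and was at 64.2 ± 0.491 CPM in KO+STAMBP and 70.4 ± 3.17 in the KO+CFLAR-labelled libraries. TCF4, an E-protein, fell from 269 ± 7.20 to 50.4 ± 1.56 CPM and the histone methyltransferase EZH2 from 136 ± 1.17 to 34.0 ± 2.35 CPM, while KLF8 rose from 9.36 ± 0.0967 to 47.9 ± 1.66 CPM. Against the knockout, 7 rose and 5 fell in KO+STAMBP, and 7 and 5 in the KO+CFLAR-labelled libraries.

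Further repressors, chosen after their values were seen, also went both ways. ZEB2 was at 103 ± 3.54 CPM in WT, 34.5 ± 2.32 in the knockout (log2 -1.57 ± 0.06, adjusted p = 3.78e-12), 246 ± 3.85 in KO+STAMBP and 240.4 ± 16.7 in the KO+CFLAR-labelled libraries. SNAI1 rose from 0.672 ± 0.120 to 13.1 ± 1.83 CPM (log2 4.28 ± 0.31, adjusted p = 8.79e-09) and SNAI2 from 5.55 ± 0.381 to 24.1 ± 1.04 CPM (log2 2.12 ± 0.11, adjusted p = 1.89e-10). The part of any listed repressor in the level of CDH1 was not tested.

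Of 14 tested activators of the epithelial programme (CDX2 and FOXA2 did not pass the filter), 13 rose and 0 fell in the knockout (median log2 7.33). ELF3, an epithelial ETS factor, had 11 counts in all in WT and was at 301 ± 6.55 CPM in the knockout (log2 9.98 ± 0.09, adjusted p = 1.05e-18). KLF5 rose from 2.54 ± 0.139 to 247 ± 4.94 CPM, KLF4 from 0.838 ± 0.198 to 122 ± 3.91 CPM and ESRP1, an epithelial splicing regulator, from 0.258 ± 0.119 to 184 ± 2.31 CPM. Against the knockout, 13 fell and 0 rose in KO+STAMBP, and 13 and 0 in the KO+CFLAR-labelled libraries. Against WT, 5 were called higher in KO+STAMBP and 6 in the KO+CFLAR-labelled libraries, and 0 lower in either. Of all genes, 16.4% were called higher and 18.5% lower in KO+STAMBP, and 15.8% and 17.9% in the KO+CFLAR-labelled libraries.

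**Figure D5:**
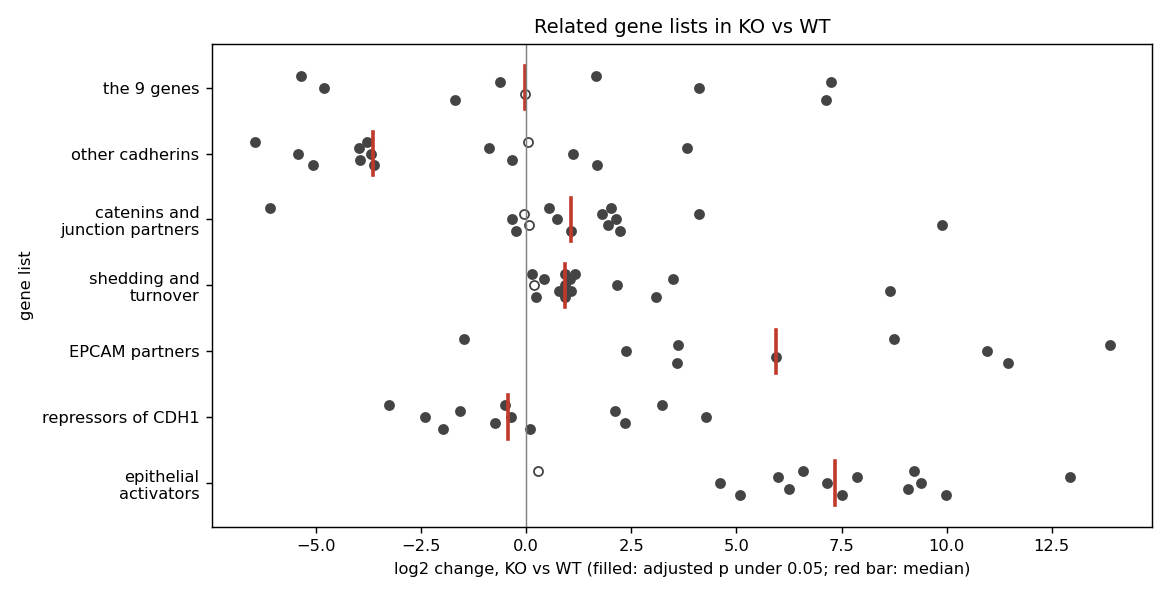
Points give the log2 change in the knockout vs WT of each tested gene of the 9 and of the 6 related lists, filled where the test was passed, and red bars give the medians. The medians of the lists run from -3.65 for other cadherins to 7.33 for activators of the epithelial programme, while the 9 genes spread from -5.36 to 7.26.

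The genes whose levels followed CDH1 and CDH2 most closely were sought among 11256 others with a mean of at least 10 CPM, by Pearson's r of log2(CPM + 0.1) over the 10 libraries. The libraries fall into the knockout and the rest, so r is a description only. For CDH1 the closest were SUCO (r = 0.9998), IFFO2 (r = 0.9997) and AHNAK (r = 0.9996), and 1271 genes exceeded 0.99. SUCO was at 110 CPM in WT, 562 in the knockout, 91.7 in KO+STAMBP and 91.3 in the KO+CFLAR-labelled libraries, a smaller range than that of CDH1. For CDH2 the closest were HIP1 (r = 0.9993), CADM1 (r = 0.9991) and GPRC5B (r = 0.9987), with 255 genes over 0.99. CADM1, an immunoglobulin-type adhesion molecule, was at 429 CPM in WT, 108 in the knockout, 284 in KO+STAMBP and 270 in the KO+CFLAR-labelled libraries.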

How the data were processed

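RNA was extracted with Trizol and libraries were made with a TruSeq kit from 1 ug of total RNA, per the labels' protocols. The authors deposited 1 table of whole-number counts per gene for 10 libraries. Tools and build listed in the submitters' processing notes are RSEM 1.2.4, fastp 0.20.0, DESeq2 and hg38, with no role given for any. Strand setting and annotation are not stated. Several of the rows used carry merged locus names, so the length of the counted gene model is not known.

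From the deposited counts, edgeR 4.0.16 in R 4.3.3 gave TMM-scaled CPM and, after its filter on low counts (filterByExpr, 21063 of 60898 rows kept, holding 99.9% of counts), quasi-likelihood tests. One fit over all 5 groups had 5 residual degrees of freedom and no covariate, and p-values were adjusted by Benjamini-Hochberg over all genes kept, with 0.05 as the threshold. The quasi-likelihood fit moderates the spread of each gene with that of other genes. The p-values therefore do not rest on these degrees of freedom alone. SEs came from the log2 change and its F statistic. Libraries of 1 group differed by more than sampling noise, so none was counted as a duplicate. Values per length used the merged exons of GENCODE on GRCh38. Depth is the library totals given above.

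The members and gene lists were chosen with earlier results of these data known. Named genes are the 9, STAMBP and CFLAR, from each list the 4 lowest in adjusted p in the knockout vs WT with a mean of at least 10 CPM, and 3 genes most like CDH1 and CDH2; others are marked. Some values of 1 listed gene are not reported here. Alternatives were DESeq2 1.42.0, median-of-ratios factors, other low-count filters, a replicate block, each knockout line alone as the reference, each library left out, fits of only the groups compared, and longest transcripts as lengths. Scaling by library size alone and leaving out both KO+CFLAR-labelled libraries were added after seeing the data.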

Additional observations from a re-analysis of the deposited data

How the results depend on the processing

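Over 81 log2 changes (9 genes in 9 comparisons) and 20 other settings, 1467 values were recomputed. Of these 1429 kept their direction and side of the threshold, 25 had the other sign, 12 became called and 1 lost its call. The comparisons of KO+STAMBP and of the KO+CFLAR-labelled libraries with the knockout gave none of these changes. The cause of each change was not tested.

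All values with the other sign belong to changes that were not called. CDH6 was at 0.01 in the knockout, KO1 and KO2 vs WT with median-of-ratios factors and with DESeq2, and with 1 library left out ranged from -0.09 to 0.04, -0.15 to 0.10 and -0.08 to 0.02, with a call at -0.15 (adjusted p = 0.0442) without KO1 replicate 2. By library size alone it was called in all 3, at -0.20, -0.19 and -0.21. CDH3 vs WT ranged from -0.15 to 0.05 (KO+STAMBP) and -0.02 to 0.19 (KO+CFLAR-labelled). Between KO1 and KO2, EPCAM ranged from -0.08 to 0.01, CDH3 from 0 to 0.05 and CDH6 from -0.12 to 0.12, and CDH2 was at 0.01 by library size alone.

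Between the KO+CFLAR-labelled libraries and KO+STAMBP, CDH1 ranged from -0.15 to 0.24 and CDH2 from -0.02 to 0.02, with CDH2 at 0.01 without a low-count filter. There, 1 of the 9 genes was called higher (CDH4) with DESeq2, without a filter (0.20, adjusted p = 0.00375) and with the replicate block (0.19, adjusted p = 0.0474), and 1 lower (CDH11, -0.23, adjusted p = 0.0348) without a filter. The 229 genes called became 364 with DESeq2, 780 without a filter, and 27 to 313 with 1 library left out: 27 without KO+STAMBP replicate 1, 29 without KO+STAMBP replicate 2 and 52 without KO+CFLAR replicate 1. Between KO1 and KO2, the 33 genes called became 251 without a filter and 20 (without KO2 replicate 2) to 58 (without KO1 replicate 2).

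The labels link same-numbered libraries of different groups by the number alone. Between pairs of groups, the correlation of their deviations ran from -0.024 to 0.113, and whether they shared handling was not tested. The replicate block changed no call of the 9 genes other than that of CDH4. With the longest transcript as length, CDH2 made up 65.55% of cadherins in WT and 13.79% in the knockout, and CTNNA2 15.67% of the alpha-catenins in WT and 33.52% in KO+STAMBP. The WT level behind the fold of EPCAM rests on 50 counts.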
